A study of Mus musculus with 8 samples.

Results

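Heat shock proteins and chaperones are the proteins that fold new polypeptides, hold unfolded ones and hand damaged ones to the degradation machinery. The genes were chosen by symbol from those listed in both the input and the HA table of mature mouse oocytes, and included the HSP90, HSP70 and HSP110 families, HSP60 and HSP10, the CCT chaperonin, small HSPs, J-domain proteins (DNAJ), BAG proteins, the HSP90 co-chaperones Stip1 and St13, and the heat shock factors. Of 8537 genes present in both tables, 62 matched, of which 49 in input and 44 in HA had at least 10 CPM (counts per 1000000 reads) in 2 libraries. They comprised 3 HSP90, 10 HSP70 and HSP110, 3 HSP60 and HSP10 (1 of them the pseudogene Hspd1-ps3), 7 CCT, 2 small HSP, 4 DNAJA, 6 DNAJB, 19 DNAJC and 4 BAG genes, Stip1 and St13, Hsf1, and Hspbap1.

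HSP70 proteins bind exposed hydrophobic stretches in cycles of ATP hydrolysis. J-domain proteins bring substrates to them and start the hydrolysis, HSP110 and BAG proteins release the nucleotide, and STIP1 (also called HOP) passes the substrate on to HSP90. Hsp90b1 (GRP94) and Hspa5 (BiP) do this work in the endoplasmic reticulum (ER), Hspa9 and the Hspd1/Hspe1 chamber do it in mitochondria, and CCT folds actin and tubulin in the cytosol. HSF1 is the transcription factor of the heat shock response and is also a maternal factor in the mouse oocyte. A mature oocyte does not transcribe, so the chaperone proteins it newly makes come from stored mRNA.

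The oocytes were at metaphase II (MII), and came from C57BL/6 females of the genotype RiboTagF/F;Zp3-Cre, which both ages carried. In these mice an HA tag is added to the ribosomal protein RPL22 once Zp3-Cre, which is active in growing oocytes, has recombined the locus, so that anti-HA precipitation recovers ribosome-bound mRNA from the oocyte. Young females were 1 month old, and old females were 12 to 15 months old and retired breeders, so that age and breeding history cannot be told apart. Ovulation was induced with 5 IU PMSG followed after 48 h by 10 IU hCG, 13 h before collection. Each age had 2 pools of 200 oocytes, and from each pool 10% of the lysate was sequenced as total mRNA (input) and the rest after HA precipitation (HA), giving 8 libraries.

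Reads on genes numbered 38276453 to 60052814 in the input libraries and 37817382 to 59688578 in the HA libraries. Values are CPM that the authors scaled with TMM separately within each table, so a ratio of HA to input has no fixed zero point and was compared between genes only by rank. Oocyte markers reached a summed input of 8562 to 9733 CPM per pool, 10 of 14 cumulus and granulosa cell markers were listed in the input table at a summed 157 to 317 CPM, and no immune or erythroid marker was listed. The part of these cells in the results was not tested. Whether each pool was a separate set of animals is stated only as biological independence, and less mRNA per oocyte cannot be told apart from fewer intact oocytes in a pool.

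The level of HSP90 mRNA stood near the top of the oocyte transcriptome. Divided by exon length, the input level of Hsp90aa1, the inducible cytosolic HSP90, was 284 ± 37.8 CPM per kb (SD, n = 4 pools), higher than 99.2% of the genes listed in input. Dnajc21, which acts in the assembly of the large ribosomal subunit, followed at 258 ± 55.3 CPM per kb and did not differ from it beyond the spread of the pools. Stip1 was next at 142 ± 18.7, then the ER form Hsp90b1 at 111 ± 22.2 and the constitutive cytosolic form Hsp90ab1 at 84.9 ± 10.7 CPM per kb. Hspa8, the constitutive cytosolic HSP70, whose processed copies can share its reads, stood at only 17.2 ± 1.63 CPM per kb, below its HSP110 relatives Hspa4 at 65.2 ± 7.68 and Hsph1 at 37.6 ± 6.71 and below the ER HSP70 Hspa5 at 44.0 ± 14.5 CPM per kb.

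The 7 subunits listed of the CCT ring, which holds its subunits in equal number, did not have equal mRNA levels. Cct5 led at 48.1 ± 19.3 CPM per kb, Cct2, Tcp1 and Cct8 lay between 15.3 and 20.4, and Cct4, Cct3 and Cct7 lay between 1.04 and 3.42 CPM per kb. The length used joins the exons of all annotated transcripts of a gene. It was 6778 bases for Cct7 and 6370 for Cct3 against 2766 for Cct5, and its part in the order was not tested. The HSP60 and HSP10 pair was likewise unequal, with Hspd1 at 21.6 ± 1.54 and its lid Hspe1, whose processed copies can share its reads, at 3.41 ± 1.96 CPM per kb. Counting was over whole genes without regard to strand. Cct8 overlaps Usp16, Cct7 overlaps Pradc1, Tcp1 overlaps Mrpl18 and Hspd1 overlaps Hspe1, each on the other strand, so their reads could not be told apart where they overlap. In all, 16 of the 62 genes overlapped another listed gene.

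**Figure D1:**
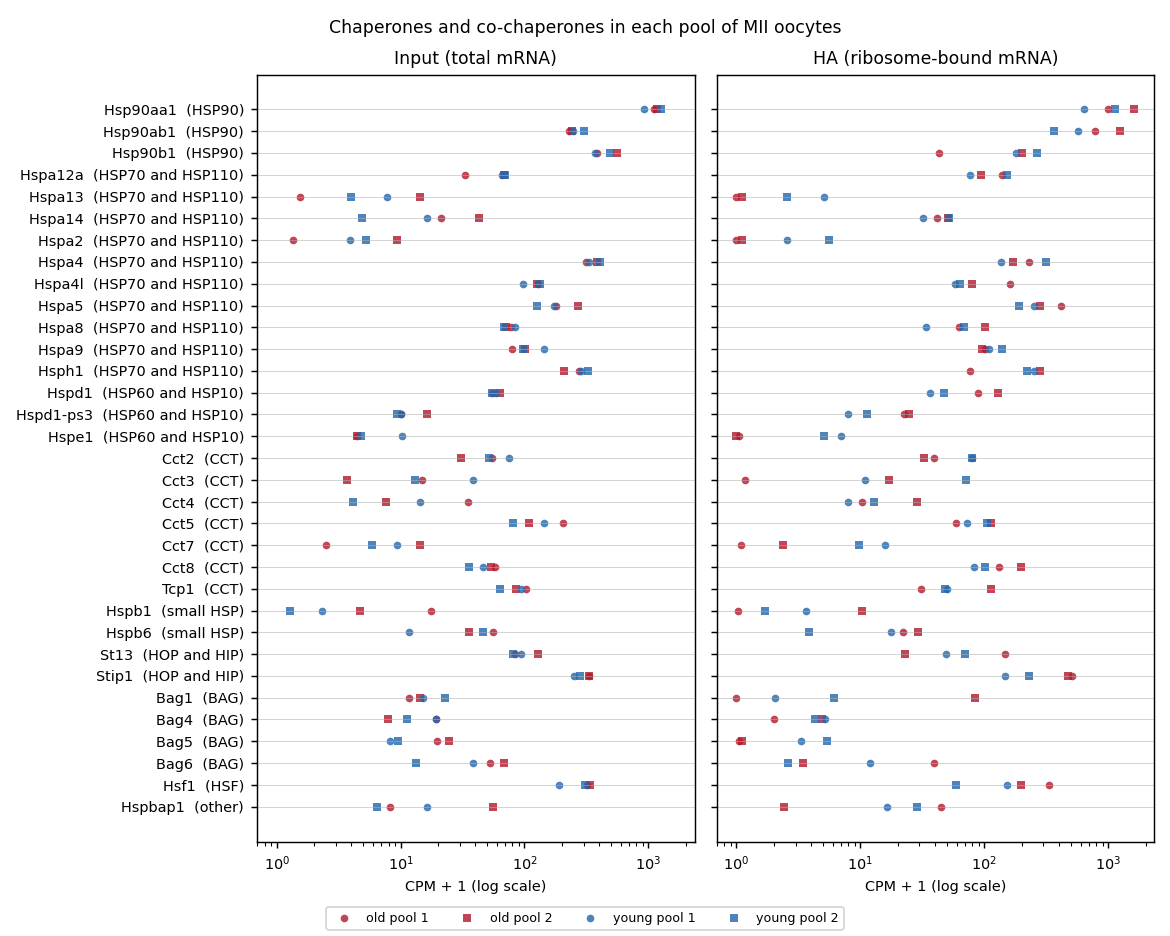
Level of each chaperone and co-chaperone gene outside the J-domain family in the 4 pools, as CPM + 1 on a log axis, in input (left) and HA (right); red is old, blue is young, circles are pool 1 and squares pool 2. Hsp90aa1 is the highest of them, and low genes such as Hspe1, Hspa2, Hspa13 and Bag5 lie at the left edge in both old HA libraries.

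Among J-domain genes, the highest input CPM of each type, not divided by length, were those of Dnaja2, Dnaja1 and Dnaja3, of Dnajb4, Dnajb6 and Dnajb11, and of Dnajc21, Dnajc3 and Dnajc13. Per kb the order was different, with Dnajc8 at 64.3 and Dnajc2 at 30.7 above the long Dnajc13 at 25.4, and Dnajb11 at 20.9 above Dnajb6 at 13.4 CPM per kb. Dnajb4, a cytosolic partner of HSP70, gave 550 and 558 CPM in the old against 563 and 492 CPM in the young input pools. Its HA level was 1052 and 1428 CPM in the old against 996 and 1214 CPM in the young pools. Both overlapped between ages, and its log2 difference, old minus young, was 0.07 ± 0.23 (SE) in input and 0.16 ± 0.36 (SE) in HA, where it turned to -0.48 with libraries set to the same sum and to -0.60 after quantile normalization. Dnajc21 gave 629 and 936 CPM in old and 445 and 1082 CPM in young HA, where the young pools enclosed the old. Dnajc3, an ER co-chaperone that also inhibits eIF2alpha kinases, gave 284 and 360.4 CPM in old against 397 and 338 CPM in young pools in HA, again overlapping.

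**Figure D2:**
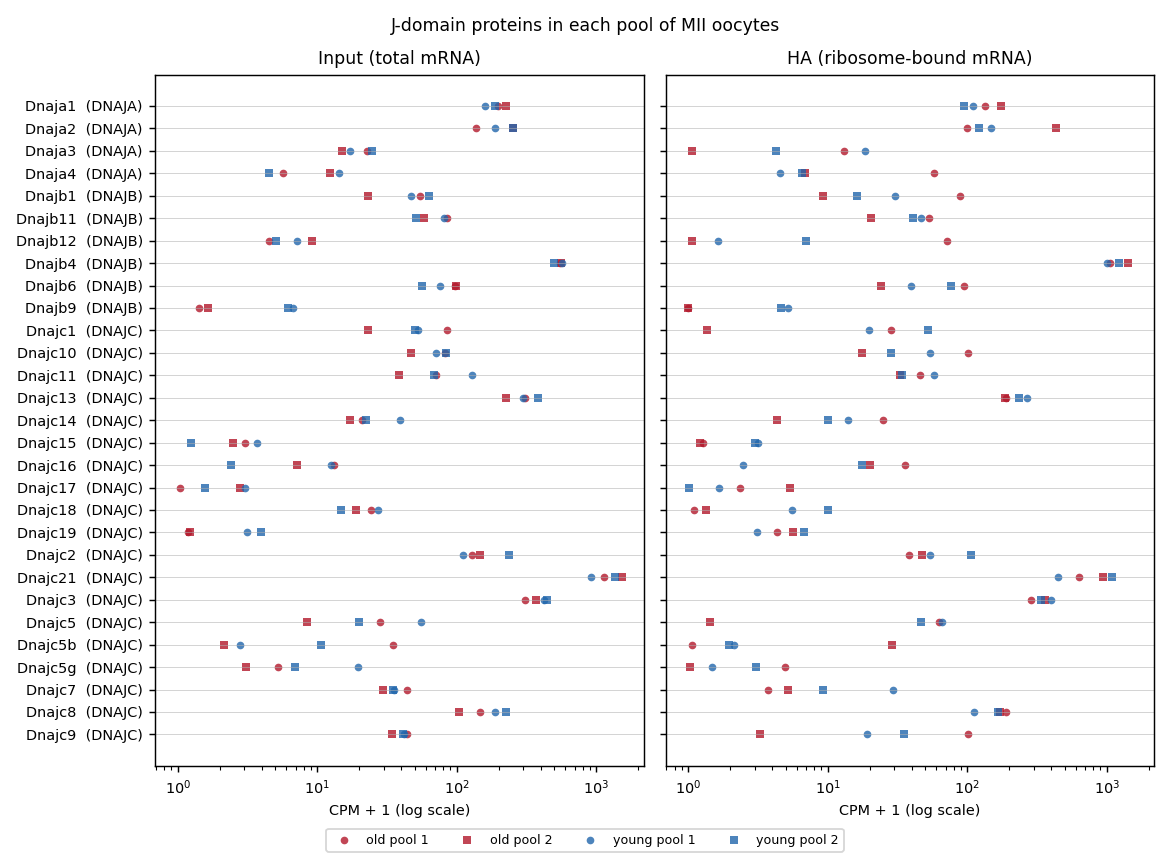
Level of each of the 29 J-domain genes in the 4 pools, as CPM + 1 on a log axis, in input (left) and HA (right), with symbols as for the other chaperones. Dnajb4 and Dnajc21 stand apart at the right, and Dnajb9 is at the left edge in both old HA libraries.

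Sequences that bear on how such genes are controlled are shown for a few of them. Heat shock factor binds inverted repeats of GAA, and a run of GAA, TTC and GAA, each 2 bases apart (either strand), was found in RefSeq promoters, from 250 bases before to 50 bases after the start site, of 4 of the 47 chaperone genes that have an entry, or 8.51%. It was found in 0.611% of the 6386 genes in both tables that have one. The shorter GAANNTTC, which the longer run contains, was found in 10 of 47 (21.3%), against 7.05%. The 4 genes with the longer run were Dnajb6, Hspd1, Hspe1 and Hsph1. Hspd1 and Hspe1 lie head to head on chromosome 1 and share 1 stretch with 2 overlapping runs, read here from each gene's own strand (GRCm38.p6). In their windows only 1 of these 2 runs is in capitals. The capitals mark the run, at chr1:55088050-55088079 on the minus strand for Hspd1, chr1:55088051-55088080 on the plus strand for Hspe1, chr5:29735844-29735873 on the plus strand for Dnajb6 and chr5:149636279-149636308 on the minus strand for Hsph1.
Hspd1: gccttccgGAAGGTTCTAGAAcggaccgtg
Hspe1: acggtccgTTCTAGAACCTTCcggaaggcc
Dnajb6: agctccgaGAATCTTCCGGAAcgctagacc
Hsph1: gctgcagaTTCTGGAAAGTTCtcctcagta

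In the oocyte, mRNAs are stored with short poly(A) tails, and the protein CPEB1 binds cytoplasmic polyadenylation elements (CPEs) in the 3′-UTR. TTTTAT or TTTTAAT was found in the annotated 3′-UTR of 36 of 61 chaperone genes (59.0%) and of 70.6% of the 7935 genes in both tables that have one. Within 100 bases of the annotated 3′ end it was found in 9 chaperone genes (14.8%) and in 21.8% of all. The members' 3′-UTRs were shorter, with a median of 1141 bases against 1537, and held 1.20 elements per kb against 1.33. Hsp90aa1, Hsp90ab1 and Hsp90b1 had none in theirs. Windows are shown for the 2 leading J-domain genes and for 3 genes of the HA comparison, with the element in capitals (GRCm38, minus strand except Hspe1). They lie at chr3:152183955-152183984 for Dnajb4, chr15:10446927-10446956 for Dnajc21, chr19:7020816-7020845 for Stip1, chr12:111709501-111709530 for Bag5 and chr1:55091195-55091224 for Hspe1.
Dnajb4: tgagtcctatagtctTTTTAATagaatgtg
Dnajc21: gtggaagattatTTTTATcttataaagaca
Stip1: tagttggttattTTTTATttggggcagtgg
Bag5: ttggatggtctgTTTTATcataaacatttt
Hspe1: tccatgcctcccTTTTATaataaacagatg

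The ratio of HA to input ranked the genes by ribosome association. Over the 4 pools the mean percentile rank of the chaperone genes had a median of 49.2, with 28 of 62 above 50. Among the 44 genes with a mean of at least 10 CPM in both tables, Cct8 had a rank of 84.2 and 89.8 in the old against 89.1 and 94.2 in the young pools. Hsp90ab1 had 91.0 and 93.5 in the old against 94.4 and 72.4 in the young pools, and Dnajb4 had 80.2 and 83.7 against 88.4 and 92.2. These ranks were high in every pool of both ages. Hspa14, which works with the ribosome-associated J-domain protein MPP11 encoded by Dnajc2, was named for its mean ratio among these 44 genes, but its ratio ran from 1.19 to 13.2 between pools.

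At the other end, Hsp90b1 had a rank of 11.2 and 37.1 in the old against 26.5 and 34.8 in the young pools, so that it lay below 50 in all 4. The 2 cytosolic HSP90 mRNAs lay above it in every pool. Dnajc2 ranked 25.9 and 34.3 in the old against 26.8 and 28.1 in the young pools. All 4 BAG genes had a mean rank below 50, from 16.6 for Bag5 to 29.8 for Bag1, and Bag6, a chaperone for tail-anchored proteins, ranked 50.1 and 7.23 in the old against 11.2 and 9.42 in the young pools. Bag1 ranked 94.6 in old pool 2 and at most 15.1 in the other 3 pools. Single pools therefore set some of these means.

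**Figure D3:**
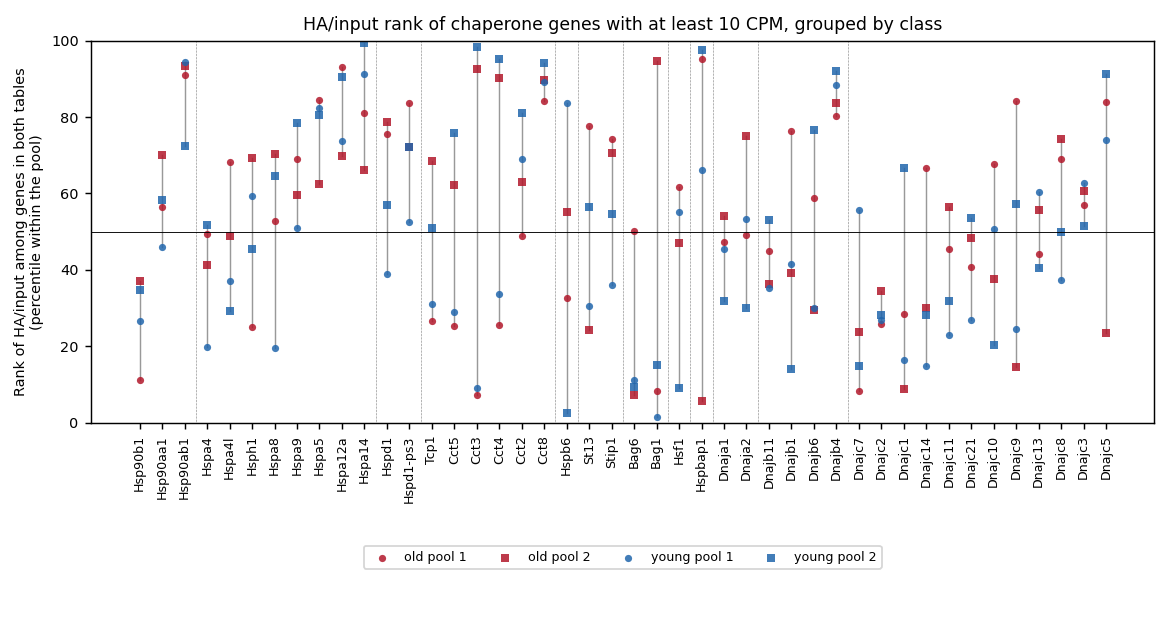
Percentile rank of HA/input within each pool, among all genes in both tables, for the 44 chaperone genes with a mean of at least 10 CPM in both tables; genes are grouped by class between dotted lines, and grey lines join the 4 pools of a gene. Cct8, Dnajb4 and Hsp90ab1 keep high ranks in all pools and Hsp90b1 and Dnajc2 low ones, while Cct3, Bag1 and Hspbap1 run from under 10 to over 90.

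For total mRNA, the comparison of old with young oocytes asked whether stored chaperone mRNA differed with age. By limma on log2(CPM + 1) no chaperone gene passed an adjusted p of 0.05 (1 of all 10530 genes did, 0.0095%), and 2 of 62 had an unadjusted p under 0.05 (3.23%), where 6.18% of all genes did. On the reads recovered from the CPM values no chaperone gene had an adjusted p under 0.05 either, and an unadjusted p under 0.05 was reached by 0 genes in edgeR's quasi-likelihood test, 3 in its likelihood ratio test and 1 in DESeq2, where 5.51%, 7.28% and 9.2% of all genes reached it. The median log2 difference over the 62 genes was 0.00, with 31 higher and 31 lower, against -0.03 over all genes, 48.6% of which were higher. Groups did not overlap for 10 genes higher in old oocytes and 10 lower, 16.1% each, against 16.4% and 18.9% of all genes.

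The 2 genes were the small HSP Hspb1 and the ER J-domain protein Dnajb9. Hspb1, an ATP-independent holdase, gave 16.6 and 3.75 CPM in the old against 1.32 and 0.289 CPM in the young input pools. Both old pools were above both young ones, but the old pools were themselves far apart, and the log2 difference was 2.40 ± 1.05 (SE, limma adjusted p = 0.778). Dnajb9 (ERdj4), a target of the ER stress response, gave 0.423 and 0.662 CPM in the old against 5.66 and 5.20 CPM in the young pools. The ages were well separated at a low level, with a log2 difference of -2.06 ± 0.86 (SE, limma adjusted p = 0.778).

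The genes next in order, at or above 10 CPM, did not pass either. Bag6 gave 51.7 and 68.0 CPM in old against 37.6 and 12.2 CPM in young pools, Hspa14 gave 20.1 and 41.8 CPM in old against 15.3 and 3.89 CPM in young pools, and Dnajc8, a splicing-associated J-domain protein, gave 146 and 102 CPM in old against 186 and 223 CPM in young pools. In each of the 3 the ages did not overlap. Their log2 differences were 1.41 ± 0.66 (SE), 1.75 ± 0.93 (SE) and -0.73 ± 0.33 (SE), with limma adjusted p of 0.778, 0.790 and 0.778. Without young pool 1 they were 2.19, 2.62 and -0.86, and without young pool 2 they were 0.64, 0.88 and -0.60. Dnajc19, a component of the mitochondrial import motor, was at 0.184 and 0.221 CPM in old and 2.16 and 2.97 CPM in young input. Hsp90aa1, Hspa8 and Hspd1 overlapped between ages and had log2 differences of 0.08, -0.02 and 0.05.

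For ribosome-bound mRNA, the comparison asked whether ribosomes of old oocytes held more or less chaperone mRNA. No chaperone gene passed an adjusted p of 0.05 by limma, and none of all 8898 genes did (0.0%). An unadjusted p under 0.05 was reached by 10 of 62 (16.1%), where 14.7% of all genes reached it. Of these, 2 were higher in old oocytes, Stip1 and Hsp90ab1 (3.23%, against 4.28% of all genes), and 8 were lower (12.9%, against 10.5%). Groups did not overlap for 14 genes higher in old oocytes (22.6%, against 17.2%) and 13 lower (21.0%, against 24.7%). The shares lay close to those of all genes. Under other tools, edgeR's likelihood ratio test gave an adjusted p under 0.05 for 2 genes, Dnajb9 and Hspe1 (3.32% of all genes), the quasi-likelihood test and DESeq2 for 0. Without young pool 2, limma gave 6 such genes (Bag5, Dnajb9, Dnajc18, Hspa13, Hspa2 and Hspe1) (7.13% of all genes), and without old pool 1 it gave 1 (4.42% of all genes), Dnajc5, which was singled out after its values were seen. In those fits the lone pool is assumed to vary like the other age.

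The direction of a difference in HA depended on how libraries were scaled. TMM left the old HA libraries with larger sums than the young ones, 1115494 and 1397708 against 771444 and 831404 CPM. The median log2 difference over all HA genes was -0.14 with TMM, -0.68 with all libraries set to the same sum, 0.04 with the median ratio and -0.05 after quantile normalization. Over the 62 chaperone genes it was 0.09, -0.53, 0.23 and -0.16, with 32 of 62 higher under TMM (45.9% of all genes). Plain reads per 1000000 reads of the library (RPM), which use no TMM, are therefore given beside the HA values of the leading genes. On that scale the ages did not overlap for 4 genes higher in old oocytes (7.51% of all genes) and 22 lower (35.7% of all genes). The 4 were Stip1, Hspd1, its pseudogene Hspd1-ps3 and Dnajc17, which were also higher with TMM, and all 13 genes that were lower with TMM were among the 22.

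**Figure D4:**
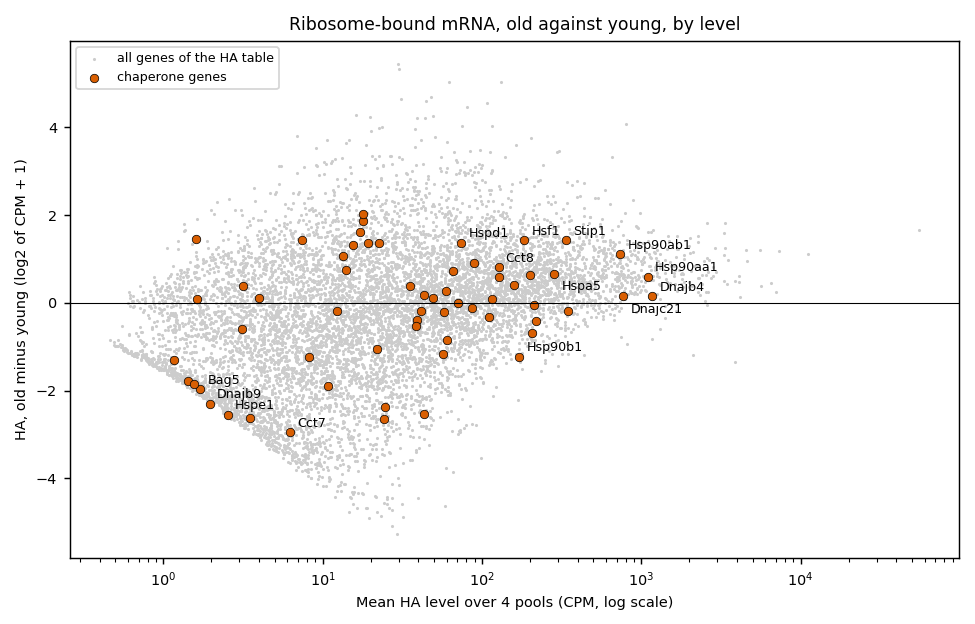
Difference in HA between old and young oocytes (log2 of CPM + 1) against the mean HA level of the 4 pools on a log axis, for all 8898 genes (grey) and the 62 chaperone genes (orange). Genes at low levels lie mostly below 0 in both sets, while chaperone genes over 200 CPM lie on both sides of 0.

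The difference moved with level. For all genes under a mean of 10 CPM in HA the median log2 difference was -0.98, and for the 15 chaperone genes there it was -1.30. Over 200 CPM it was 0.60 for all genes, 83.2% of which were higher in old oocytes, and 0.15 for the 10 chaperone genes, 6 of which were higher. All 8 chaperone genes with an unadjusted p under 0.05 and a lower value in old oocytes had a mean below 10 CPM. Of the 47 chaperone genes at 10 CPM or more only Stip1 and Hsp90ab1 had such a p (4.26%), where 8.31% of all genes at that level did.

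Stip1 was the chaperone gene with the smallest p among those higher in old oocytes. Its HA level was 508 and 474 CPM in old against 146 and 227 CPM in young pools, and its input level was 329 and 333 CPM in old against 252 and 279 CPM in young pools. Both old HA pools were more than 2 times the higher young pool, whereas in input the old pools were only slightly above the young ones. The log2 difference in HA was 1.42 ± 0.46 (SE, limma adjusted p = 0.297), and over 15 alternative settings it stayed above 0, from 0.79 to 1.74, with adjusted p from 0.129 to 0.771. In plain RPM Stip1 was at 455 and 339 in old and 189 and 273 in young HA, which again did not overlap. St13 (HIP), the other adaptor of HSP70, gave 145 and 22.1 CPM in old and 48.0 and 68.3 CPM in young HA, with the young pools inside the old.

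The 3 HSP90 mRNAs did not share a direction. Hsp90ab1 gave 782 and 1233 CPM in old against 571 and 364 CPM in young pools in HA and 229 and 242 CPM in old against 247 and 302 CPM in young pools in input. In HA both old pools were above both young ones, and in input both were below. Its log2 difference in HA was 1.10 ± 0.44 (SE, limma adjusted p = 0.325), but in plain RPM the old pools, at 701 and 882, enclosed the higher young pool, at 740, with the other at 438. With libraries set to the same sum its log2 difference was 0.46, still above that scaling's median of -0.68.

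Hsp90aa1 gave 1003 and 1629 CPM in old against 639 and 1123 CPM in young pools in HA, which overlapped between ages, and its log2 difference of 0.59 ± 0.45 (SE, limma adjusted p = 0.671) turned to -0.05 with libraries set to the same sum and to -0.20 after quantile normalization. Hsp90b1 gave 42.0 and 201 CPM in old against 179 and 265 CPM in young pools in HA. Old pool 1 was far below the other 3, which lay close together, and the log2 difference was -1.23 ± 0.81 (SE, limma adjusted p = 0.605). In plain RPM Hsp90b1 was at 37.6 and 144 in old and 232 and 319 in young HA, which did not overlap, and its difference was below 0 under all 15 alternatives, from -2.35 without old pool 2 to -0.11 without old pool 1.

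**Figure D5:**
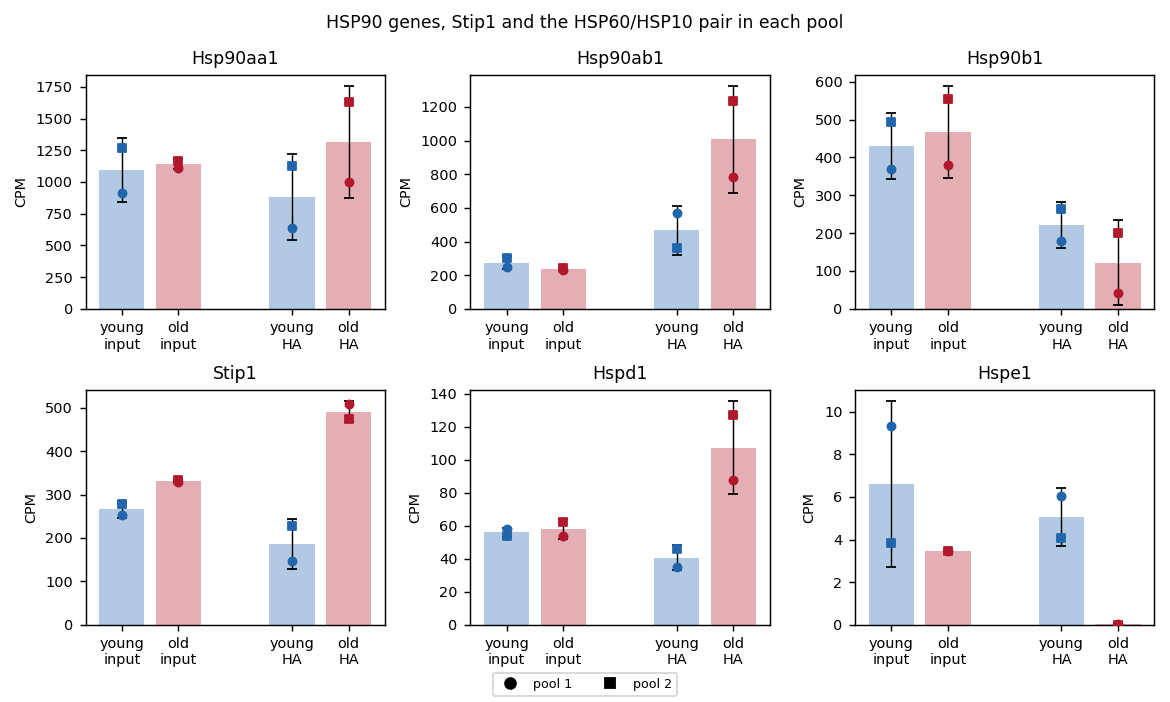
Level in CPM of the 3 HSP90 genes, Stip1, Hspd1 and Hspe1 in input and HA by age; bars are means of 2 pools, whiskers are SD, and points are the pools (circles pool 1, squares pool 2). Stip1 and Hspd1 have both old HA pools above both young ones with input levels close together, and Hspe1 is at the baseline in old HA.

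The 2 parts of the mitochondrial HSP60 chamber lay on opposite sides in HA, neither past the adjusted threshold. Hspd1 gave 87.7 and 127 CPM in old against 35.2 and 46.2 CPM in young pools in HA and 53.9 and 62.4 CPM in old against 58.1 and 53.8 CPM in young pools in input. The old HA pools were above the young ones while the input levels of the 4 pools lay together, and the log2 difference in HA was 1.37 ± 0.70 (SE, limma adjusted p = 0.446). In plain RPM it was at 78.6 and 91.0 in old and 45.6 and 55.6 in young HA. Hspd1-ps3, a processed copy that can share its reads, gave 21.5 and 23.6 CPM in old and 6.98 and 10.3 CPM in young HA, and its values are uncertain for that reason.

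Hspe1 had 2 and 0 reads in old against 466 and 232 reads in the young HA libraries. It was thus nearly missing from old HA, with the limit that its processed copies can share its reads, while its input was 3.45 and 3.45 CPM in old and 9.35 and 3.84 CPM in young oocytes. Its log2 difference was -2.55 ± 0.70 (SE, limma adjusted p = 0.297), a value that depends on the pseudocount and is no bound. The mitochondrial HSP70 Hspa9 gave 101 and 95.4 CPM in old against 109 and 138 CPM in young pools in HA. Its young pools were slightly above its old ones, with a log2 difference of -0.32 ± 0.57 (SE).

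Hspe1 was 1 of 5 chaperone genes with at most 3 reads in both old HA libraries, the counting floor used here (0.0713 and 0.111 CPM), and 4.97% of all HA genes were at that floor too. None of the 62 was there in young HA or in input of either age. Dnajb9 had 0 and 0 reads in old and 325 and 207 reads in young HA, which makes it at least 43.1-fold lower in old HA against a floor of 3 reads per library, counting error only. Bag5, a BAG protein of several BAG domains, had 2 and 3 against 180 and 246 reads. Hspa13, a microsomal HSP70, had 0 and 3 against 316 and 88 reads, and Hspa2, the HSP70 best known from spermatocytes, had 0 and 3 against 121 and 259 reads.

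The fitted values of these genes were log2 differences of -2.30 ± 0.62 (SE) for Dnajb9, -1.97 ± 0.62 (SE) for Bag5, -1.77 ± 0.60 (SE) for Hspa13 and -1.84 ± 0.63 (SE) for Hspa2, with limma adjusted p of 0.297 to 0.298. Dnajb9 was also low in old input, as given with the total mRNA. Bag5 gave 18.6 and 23.5 CPM in old against 7.18 and 8.52 CPM in young pools in input, with both old pools above both young ones, the reverse of its HA level. Hspa13 and Hspa2 overlapped between ages in input, with old pool 1 lowest and old pool 2 highest in each.

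The remaining genes lower in old HA with an unadjusted p under 0.05 were Cct7, Dnajc15 and Dnajc18, of which the latter 2 were named after their values were seen. Cct7 gave 0.0950 and 1.37 CPM in old against 14.9 and 8.74 CPM in young pools in HA. The old pools were far below the young ones, with a log2 difference of -2.95 ± 1.20 (SE, limma adjusted p = 0.335). Dnajc18 gave 0.0950 and 0.333 CPM in old against 4.51 and 9.01 CPM in young pools and Dnajc15, a mitochondrial inner membrane protein, gave 0.285 and 0.222 CPM in old against 2.15 and 2.03 CPM in young pools.

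Within the CCT ring no shared direction was seen in HA. Of its 7 genes 3 were higher and 4 lower in old oocytes with TMM, while 2 were higher with libraries set to the same sum and after quantile normalization and 4 with the median ratio. With TMM the differences ran from -2.95 for Cct7 to 0.81 for Cct8, and 1 of the 7 had an unadjusted p under 0.05, where 14.7% of all genes did. Cct8 gave 129.9 and 197 CPM in old against 82.2 and 100.0 CPM in young pools, with the old pools above the young ones, whereas Cct2 gave 38.3 and 31.7 CPM in old against 79.1 and 78.5 CPM in young pools, with the old pools below. In plain RPM Cct8 overlapped between ages, at 117 and 141 in old and 107 and 120 in young HA, and Cct2 did not, at 34.3 and 22.7 against 102 and 94.5. Cct3 gave 0.166 and 16.1 CPM in old and 9.94 and 70.5 CPM in young HA, so that pools of 1 age differed more than the ages. In HA relative to input 1 of the 7 genes was higher and 6 lower with TMM, where 47.1% of all genes were higher. Their median log2 difference there was -0.56. With libraries set to the same sum 0 were higher, after quantile normalization 1 and with the median ratio 2. None of the 7 had an unadjusted p under 0.05 there, where 6.49% of all genes did.

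The HSP70 and HSP110 genes gave 5 higher and 5 lower in HA, with a median log2 difference of 0.01 that turned to -0.62 with libraries set to the same sum and -0.53 after quantile normalization, with 3 higher in each. Hspa5 (BiP) gave 416 and 282 CPM in old against 249 and 189 CPM in young pools in HA and 179 and 271 CPM in old against 171 and 124 CPM in young pools in input. The old pools were above the young ones in both, with log2 differences of 0.66 ± 0.47 (SE) and 0.59 ± 0.34 (SE) and limma adjusted p of 0.648 and 0.800. In plain RPM its ages overlapped, at 373 and 202 in old and 323 and 227 in young HA, and with libraries set to the same sum its log2 difference in HA was 0.02. Hspa8 gave 62.1 and 99.6 CPM in old against 33.1 and 67.9 CPM in young pools in HA and overlapped. Hsph1 was at 75.8 CPM in old pool 1 and at 220 to 282 CPM in the other 3, and Hspa4 gave 229.6 and 171 CPM in old against 136 and 312 CPM in young pools.

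Hsf1 was the third gene by p among those higher in old HA. It gave 331 and 196 CPM in old against 153 and 58.2 CPM in young pools in HA and 320.1 and 339 CPM in old against 187 and 305 CPM in young pools in input. Both old pools were above both young pools on each, though young pool 2 was low in HA and not in input. The log2 difference in HA was 1.42 ± 0.66 (SE, limma adjusted p = 0.382), and over 15 alternative settings it ran from 0.73 to 2.11. In plain RPM its ages overlapped, with 297 and 140 in old and 198 and 70.0 in young HA.

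For HA relative to input, the study's translation efficiency, no chaperone gene passed an adjusted p of 0.05 and 1 of 62 had an unadjusted p under 0.05 (1.61%, where 6.49% of all genes did). The quasi-likelihood test of edgeR on the recovered reads gave 6 of 62 (7.44% of all genes). None of all genes passed an adjusted p by limma either (0.0%). The median log2 difference over the 62 genes was 0.00, with 31 higher and 31 lower, against -0.10 over all genes, 47.1% of which were higher. Groups did not overlap for 10 genes higher (16.1%, against 16.8%) and 14 lower (22.6%, against 23.2%).

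The gene was Hsp90ab1, whose ratio was 3.42 and 5.09 in old and 2.32 and 1.21 in young pools. The ages did not overlap, and the log2 difference was 1.32 ± 0.54 (SE, limma adjusted p = 0.739), with 0.87 under libraries set to the same sum. Over 14 alternative settings it ran from 0.72 to 1.78. Stip1 had ratios of 1.54 and 1.42 in old and 0.579 and 0.815 in young pools, and a log2 difference of 1.10 ± 0.53 (SE, limma adjusted p = 0.739). Hsp90b1 had ratios of 0.110 and 0.364 in old and 0.485 and 0.538 in young pools, and a log2 difference of -1.34 ± 0.68 (SE, limma adjusted p = 0.739), which was -0.49 without old pool 1 and -2.19 without old pool 2. The cytosolic HSP90 gene and its co-chaperone thus lay higher in old oocytes and the ER HSP90 lay lower, each without overlap and each short of the adjusted threshold, and for the ER HSP90 the size rested on old pool 1.

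The next genes in order were low. Dnajc17 had ratios of 36.8 and 2.44 in old and 0.327 and 0.0305 in young pools, from levels under 5 CPM throughout. Bag5 had 0.00255 and 0.00473 against 0.324 and 0.509, with a log2 difference of -3.28 ± 1.46 (SE, limma adjusted p = 0.739), and Cct7 had 0.0623 and 0.102 against 1.79 and 1.78. Hspd1 had 1.63 and 2.04 against 0.606 and 0.859, with a log2 difference of 1.31 ± 0.90 (SE) and an adjusted p of 0.768 from limma.

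Sorted by the compartment of the protein, a grouping made after the values were seen and so not tested, 17 genes belonged to the cytosolic HSP90 and HSP70 system. These were all HSP90, HSP70, HSP110, DNAJA and DNAJB genes outside the ER and mitochondria, with Stip1 and St13 and without Dnajb12, which sits in the ER membrane. Their median log2 difference in HA was 0.38, with 12 higher in old oocytes. The 8 genes placed in the ER, again without Dnajb12, had a median of -0.81 with 2 higher. The 7 mitochondrial genes had a median of -0.32 with 2 higher. Of all genes 45.9% were higher, and under 10 CPM, where 2 of the ER, 4 of the mitochondrial and 1 of the cytosolic genes lay, 27.1% were. At a mean of 10 CPM or more, where the other cytosolic genes lay, 56.5% of all genes were higher, and over 200 CPM 83.2% were. The part of level in the cytosolic count was not tested. The cytosolic median in HA turned to -0.22 with libraries set to the same sum and -0.05 after quantile normalization. The ER and mitochondrial medians in HA stayed below 0 under all 4 scalings. With TMM the input medians of the cytosolic, ER and mitochondrial genes were 0.06, -0.23 and -0.41. In HA relative to input they were 0.51, -0.38 and 0.10.

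Sums over these groups depended on the scale too. The summed HA of the cytosolic genes was 4668 and 6204 CPM in old and 3316 and 4177 CPM in young pools, which did not overlap, and in plain RPM 4185 and 4438 in old and 4298 and 5024 in young pools, which did. In CPM it was 1.28 and 1.57 times their summed input in old and 0.966 and 1.05 times in young pools. The summed HA of the ER genes was 923 and 880 CPM in old and 950 and 916 CPM in young pools, which overlapped, and in plain RPM 827 and 629.6 in old and 1232 and 1102 in young pools, which did not. In CPM it was 0.825 and 0.662 times their summed input in old and 0.807 and 0.734 times in young pools, again overlapping. The summed HA of the mitochondrial genes was 249 and 260 CPM in old and 228 and 233 CPM in young pools, higher in old without overlap. In plain RPM it was 223 and 186 in old and 296 and 280 in young pools, lower in old without overlap. In CPM it was 1.08 and 1.19 times their summed input in old and 0.635 and 0.936 times in young pools.

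The 2 pools of an age often differed from each other. The median difference between the 2 pools over the 62 genes was 0.54 in old and 0.51 in young input, and 0.73 in old and 0.70 in young HA (log2). Over all genes these medians were 0.77, 0.59, 1.29 and 0.77. Pools differed by more than 2-fold for 28 of the 62 genes in old HA (45.2%, against 57.8% of all genes) and 17 in young HA (27.4%, against 38.7%). Dnajb12, named after its values were seen, gave 70.4 and 0.0739 CPM in the 2 old HA pools. For 1 gene on its own, the smallest p that exact permutation of 2 and 2 pools allows is 0.333.

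A list of 56 other chaperones and co-chaperones of the same pathways was compared in the same fits. In input 0 of the 47 listed genes were higher and 3 lower in old oocytes at an unadjusted p under 0.05 (Chordc1, Nudcd3 and Nploc4), where 2.71% and 3.48% of all genes were. In HA 3 of 48 were higher (Pdia4, P4hb and Sugt1) and 1 lower (Fkbp8), where 4.28% and 10.5% of all genes were. None passed an adjusted p, and the medians were -0.17 and -0.10. Sugt1, a co-chaperone of HSP90 that acts at kinetochores, gave 300.3 and 356 CPM in old and 71.5 and 101 CPM in young HA, with a log2 difference of 1.93. The protein disulfide isomerase P4hb gave 215 and 215 CPM in old and 113 and 55.8 CPM in young HA. In both the old pools were above the young ones.

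A list of 12 ER stress sensors and effectors had 10 genes in the HA table. Of these 1 was higher at an unadjusted p under 0.05, Ern1 (IRE1alpha), at 856 and 980 CPM in old and 486 and 239 CPM in young HA, and 2 were lower, Eif2ak3 (PERK) and Ddit3 (CHOP), both under 5 CPM, where 4.28% of all genes were higher and 10.5% lower at such a p. No gene of the list passed an adjusted p in HA, and in input none of 9 had an unadjusted p under 0.05. In HA relative to input 1 of 9 did, again Ern1, where 6.49% of all genes did.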

How the data were processed

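Per the labels and the study's methods, the authors trimmed reads with Trimmomatic 0.36, aligned them with HISAT2 to GRCm38 (mm10), counted them with HTSeq over GENCODE genes and scaled them in edgeR. The deposited values are CPM after TMM, a normalized signal scaled separately for input and HA. Although a minimum of 10 CPM in 2 samples is described for the study, genes under it are listed, and all listed genes were used. The handling of multi-mapped reads is not given in the sources used here. Every value was a whole number of reads once divided by the worth of 1 read in its library (100% of values, tolerance 1e-06 reads), and the recovered reads were used in count tests.

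Old and young pools were compared with limma 3.58.1 (R 4.3.3; linear model and empirical Bayes with an intensity trend, two-sided) on log2(CPM + 1), adjusted by Benjamini-Hochberg across the whole table, for input, HA and their difference per pool. A fold change on this scale understates that of low genes. The pairing of HA with input comes from the shared lysate. Genes were named by class, by the 3 smallest p in each direction of each comparison, and, for J-domain genes, by level and ratio. Members and lists were chosen with earlier results of these data known. Exon lengths, overlaps and 3′-UTRs came from GENCODE (GRCm38), matched for 62 of 62 genes, and promoters from RefSeq (GRCm38.p6). Alternatives used edgeR 4.0.16, DESeq2 1.42.0, other scalings, pseudocounts and filters, and each pool left out. The fits were tested on simulated data. The SD is over pools. The SE comes from the limma fit, whose variances are moderated across all genes, so it is not the spread of a gene's own pools. The floor of 3 reads covers counting error only.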

Additional observations from a re-analysis of the deposited data

How the results depend on the processing

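Counts here are chaperone genes with an unadjusted p under 0.05. In input, 2 of 62 with the reported settings became 0 with a pseudocount of 0.1 CPM, 1 with 5 CPM, 0 of 49 with at least 10 CPM in 2 libraries, 4 without an intensity trend, 0 in edgeR's quasi-likelihood test, 1 in DESeq2, 0 of 48 genes with a mean of 10 CPM and no pseudogene, and 1 to 7 with a pool left out. In HA, 10 of 62 became 2 of 44 with at least 10 CPM in 2 libraries, 2 after quantile normalization, 5 without a trend, 2 of 46 genes with a mean of 10 CPM and no pseudogene, and 7 to 12 with a pool left out. In HA relative to input, 1 of 62 became 2 with a pseudocount of 0.1 CPM, 2 with libraries set to the same sum, 2 with the median ratio, 3 without a trend, 6 in the quasi-likelihood test, and 0 to 11 with a pool left out. Of all genes, 2.88% to 11.1% in input, 11.9% to 26.1% in HA and 0.715% to 25.2% in HA relative to input had such a p with a pool left out, each highest without old pool 1, where 7 (11.3%), 11 (17.7%) and 11 (17.7%) of 62 chaperone genes did. Low counts at the 10 CPM filters follow from the low genes being left out. For the other settings the cause was not tested.

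With the replicate number as a block the counts were 1 in input, 9 in HA and 1 in HA relative to input. Deviations of pools with the same number correlated at 0.03 in input and 0.08 in HA across genes. HA and input of the same lysate, which are paired by design, correlated at only 0.006 in old and 0.11 in young pools. The check therefore cannot tell whether the numbers pair the ages. Of 255 values of single named genes under an alternative, 188 kept their direction and side of the threshold, 45 lost the unadjusted threshold, 22 gained it and none changed direction past it. In those fits that leave 1 pool in an age, it is assumed to vary like the other age. The counts above rest on 2 pools per age and on HA libraries whose old pools differed by a median of 0.73 (log2) over the 62 genes.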

Other observations

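A further 7 genes with a chaperone symbol were listed in only 1 of the tables and entered no comparison above. In input, Dnajc27 gave 11.4 and 6.46 CPM in old against 0.0290 and 0.605 CPM in young pools, which did not overlap, with an adjusted p of 0.778 from limma. Dnajb14 gave 4.65 and 55.8 CPM in old against 0.958 and 2.50 CPM in young input pools. Hsf2, a heat shock factor active in germ cells, gave 0.0735 and 2.25 CPM in old against 9.32 and 0.815 CPM in young input pools, which overlapped. Dnajb2, Dnajc4 and Hspb11 were listed in input at up to 5.07 CPM, and the pseudogene Dnajc19-ps was listed in HA at up to 1.88 CPM.

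Within a library, ratios between genes do not depend on scaling. Hsp90ab1 stood at 0.206 and 0.208 of Hsp90aa1 in old against 0.269 and 0.237 in young input pools, and at 0.780 and 0.757 in old against 0.893 and 0.324 in young HA pools. The ratio was higher in HA than in input in all 4 pools. Hsp90b1 was at 2.13 and 2.05 times Hspa5 in old against 2.15 and 3.97 times in young input pools, and at 0.101 and 0.715 times in old against 0.719 and 1.40 times in young HA pools, lower in HA than in input in all 4. Neither ratio was tested.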
